A study of Mus musculus with 16 samples.

Results

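Voltage-gated calcium channels are built around a pore-forming alpha-1 subunit, and 8 alpha-1 genes were followed here in CA1, a subfield of the mouse hippocampus: Cacna1a, Cacna1b, Cacna1c, Cacna1d, Cacna1e, Cacna1g, Cacna1h and Cacna1i. They were taken by gene symbol from the deposited table, in which 17986 genes had values in all 10 libraries, and all 8 passed the filter of at least 1 FPKM in at least 2 libraries that left 11892 genes for testing. FPKM is the number of fragments per kilobase of transcript, scaled to the mapped fragments of the library, so levels can be set side by side between genes. The other alpha-1 genes in the table were Cacna1f, at 0 to 0.02 FPKM, and Cacna1s, at 0.01 to 0.06 FPKM, and neither was tested.

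The alpha-1 subunit forms the pore, senses voltage and sets the channel type, while beta and alpha-2-delta subunits govern how many channels reach the membrane and how they gate. L-type channels (Cacna1c, Cacna1d) couple depolarization to signalling towards the nucleus. P/Q-, N- and R-type channels (Cacna1a, Cacna1b, Cacna1e) drive transmitter release, and R-type channels also carry calcium into dendritic spines of CA1 pyramidal cells. T-type channels (Cacna1g, Cacna1h, Cacna1i) open near the resting potential and support burst firing, and they do not depend on the beta subunits in the way the other types do.

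The mice were males of 3 to 6 months on a C57Bl6 background, either wild type or Neil3-/-, a mutant of a DNA glycosylase of base excision repair. CA1 was cut out with a laser dissection microscope from frozen sections of 8 µm, so each library mixes neurons, glia and vessels. Baseline mice came straight from the home cage (2 wild type, 2 Neil3-/-). The other mice (3 wild type, 3 Neil3-/-) had explored an open field arena with walls of 50 cm, a cue card and food for 20 min a day over 1 week, and were killed when 20 min had passed since the final session. Another 6 samples of the labels, named as a learning condition, were not analysed here.

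The libraries were alike in depth, as estimated from the spacing of low FPKM values. The estimate was 18.5 to 19.9 M fragments with 100 nt taken off each transcript length, and 17.7 to 18.9 M without. With the 100 nt taken off, a single fragment adds 0.0503 to 0.0541 FPKM to a transcript with 1 kb remaining. Neil3, read as a check of the labels, went against them: the 5 libraries labelled wild type listed it at 0 to 0.05 FPKM, and the 5 labelled Neil3-/- at 8.35 to 15.22 FPKM. The groups are therefore called WT-labelled and KO-labelled, and every genotype direction is that of the labels. The 5 CA1 pyramidal markers read as a check of the tissue (Wfs1, Fibcd1, Pou3f1, Mpped1, Nov) were all present, with summed levels of 743.1 to 914.9 FPKM, against 1.74 to 23.2 FPKM for 5 dentate granule markers. The home cage and exploration libraries stand in separate blocks of the table, and whether the blocks were normalized together is not stated, so exploration and block cannot be told apart. In bulk tissue, fewer cells of a type and less RNA per cell cannot be told apart either.

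Together the alpha-1 genes summed to more in the home cage than after exploration in every library. The sum of the 8 genes was 83.95 and 88.48 FPKM in the WT-labelled and 75.4 and 99.47 FPKM in the KO-labelled home cage libraries. After exploration it was 60.77, 61.1 and 57.23 FPKM in the WT-labelled and 46.61, 54.68 and 47.36 FPKM in the KO-labelled libraries. No exploration library reached the lowest home cage library, and among the exploration libraries the KO-labelled ones were all below the WT-labelled ones. P/Q-, N- and R-type genes held 51.2% to 56.6% of the sum in the 10 libraries, T-type genes 32.3% to 38.6% and L-type genes 7.7% to 11.9%. The T-type share was 37.5% to 38.6% in the KO-labelled exploration libraries and 32.3% to 36.2% in the other 7 libraries.

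**Figure D1:**
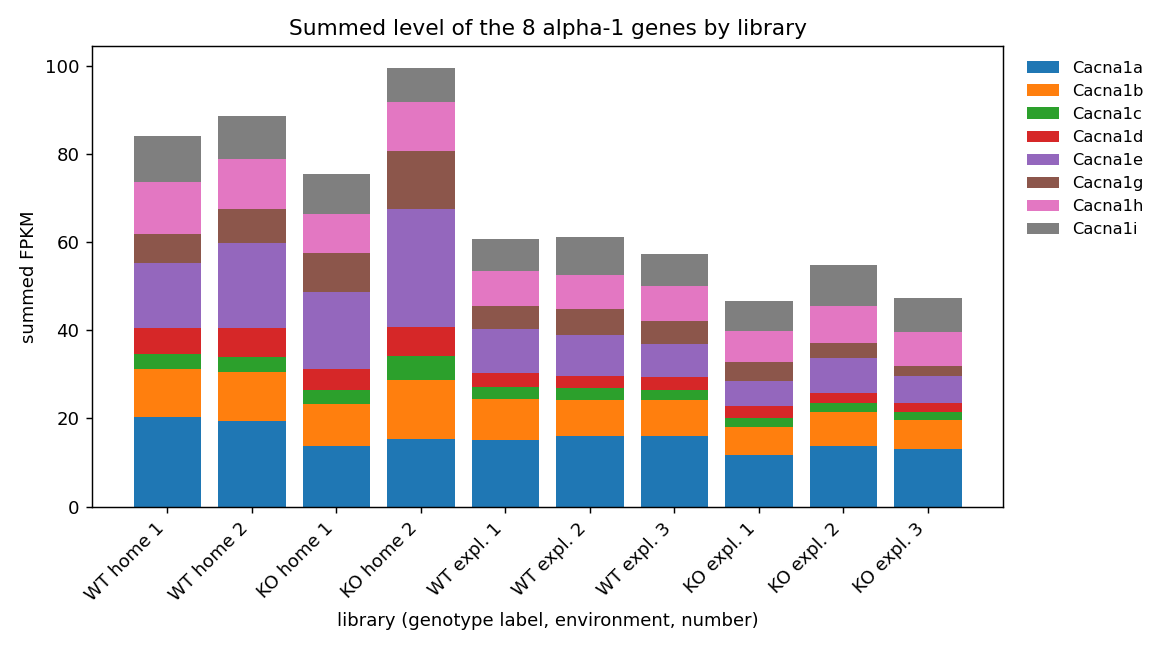
Summed FPKM of the 8 alpha-1 genes in each library (stacked bars, 1 color per gene; x axis, genotype label, environment and library number). The 4 home cage libraries reach 75.4 to 99.47 FPKM and the 6 exploration libraries 46.61 to 61.1 FPKM, with the Cacna1e segment shrinking most in FPKM.

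Over the 4 home cage libraries of both labels, Cacna1e (R-type) had the highest mean, at 19.6 FPKM ± 5.10 (SD, n = 4), next to Cacna1a (P/Q-type) at 17.2 ± 3.15. These neighbours did not differ beyond their spread, since Cacna1e was the higher in 2 of 4 libraries, the KO-labelled ones. Cacna1a exceeded Cacna1b (N-type, 11.2 ± 1.57 FPKM) in 4 of 4. Cacna1b, Cacna1h (10.8 ± 1.27), Cacna1i (9.18 ± 1.11) and Cacna1g (9.07 ± 3.03) followed without a fixed order, as each step held in only 2 or 3 of the 4 libraries. The L-type genes were lowest, Cacna1d at 5.95 ± 0.843 and Cacna1c at 3.84 ± 1.02 FPKM, in that order in 4 of 4. After exploration Cacna1a stood alone at the top with 14.3 FPKM ± 1.74 (SD, n = 6), above the next gene in 6 of 6 libraries. Cacna1e had dropped into a cluster with Cacna1h, Cacna1i and Cacna1b, whose means lay between 7.77 and 7.81 FPKM and whose neighbours were ordered either way in 3 of 6 libraries. Cacna1g (4.31 ± 1.37), Cacna1d (2.66 ± 0.490) and Cacna1c (2.23 ± 0.356) came below it, in that order in 6 of 6.

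**Figure D2:**
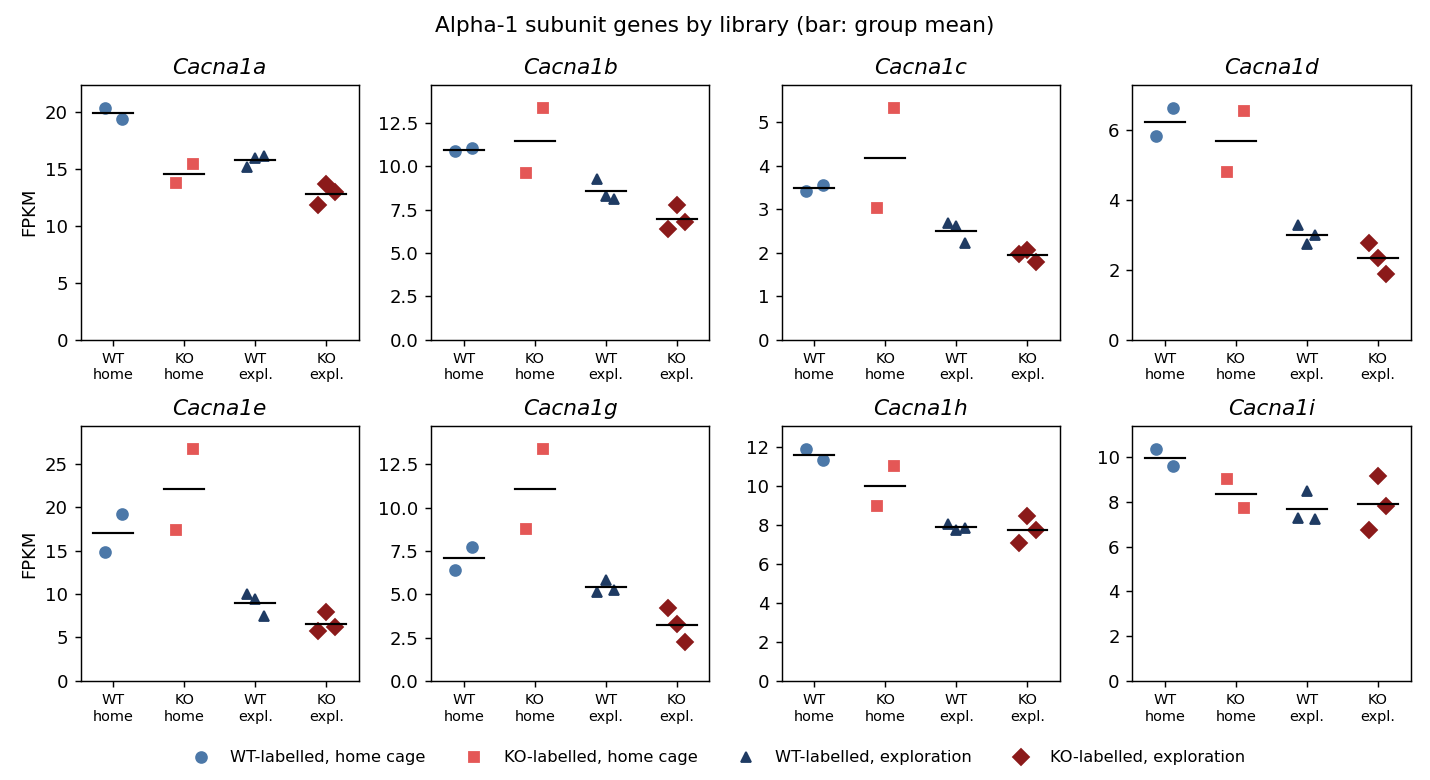
FPKM of each alpha-1 gene in every library (points; bars are group means; 2 libraries per home cage group, 3 per exploration group; each y axis starts at 0). For Cacna1d and Cacna1e every exploration point lies well under every home cage point, whereas the Cacna1i points of the 2 environments overlap.

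On GRCm38.p6, the build of the RefSeq tables used here, Cacna1d spans chr14:30039941-30491156, Cacna1e chr1:154390806-154884785 and Cacna1i chr15:80287238-80398292. RefSeq promoter windows were found for 5 of the 8 genes (Cacna1b, Cacna1c, Cacna1d, Cacna1e and Cacna1i). The 250 bases before a listed start are shown for Cacna1d and Cacna1e, the 2 genes that were lower after exploration under both labels and had a window, and for Cacna1i, which was called under neither. The Cacna1e window lies inside the span given for that gene, so its listed start is an internal one, like the 2nd Cacna1d start. Which start CA1 uses was not measured. Letters are in 5′ to 3′ order, and capitals mark the GC box, the one motif found among those searched on both strands in these 4 windows.
Cacna1d, upstream start (chr14:30491157-30491406, minus strand): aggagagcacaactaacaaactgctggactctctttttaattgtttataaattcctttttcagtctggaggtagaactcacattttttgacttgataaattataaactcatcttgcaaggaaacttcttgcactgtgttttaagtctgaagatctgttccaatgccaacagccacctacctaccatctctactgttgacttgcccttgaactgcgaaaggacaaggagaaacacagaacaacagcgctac
Cacna1d, internal start (chr14:30353487-30353736, minus strand): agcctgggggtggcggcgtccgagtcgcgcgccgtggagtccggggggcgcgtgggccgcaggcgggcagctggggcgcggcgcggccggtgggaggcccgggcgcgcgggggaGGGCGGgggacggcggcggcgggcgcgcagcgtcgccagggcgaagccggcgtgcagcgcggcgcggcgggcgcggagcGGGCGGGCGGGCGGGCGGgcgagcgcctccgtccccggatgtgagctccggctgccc
Cacna1e (chr1:154725921-154726170, minus strand): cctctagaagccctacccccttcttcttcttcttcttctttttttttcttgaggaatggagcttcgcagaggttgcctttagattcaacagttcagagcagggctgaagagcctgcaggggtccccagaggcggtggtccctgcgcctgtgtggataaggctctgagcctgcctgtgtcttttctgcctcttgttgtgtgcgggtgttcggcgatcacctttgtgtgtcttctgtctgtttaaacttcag
Cacna1i (chr15:80286988-80287237, plus strand): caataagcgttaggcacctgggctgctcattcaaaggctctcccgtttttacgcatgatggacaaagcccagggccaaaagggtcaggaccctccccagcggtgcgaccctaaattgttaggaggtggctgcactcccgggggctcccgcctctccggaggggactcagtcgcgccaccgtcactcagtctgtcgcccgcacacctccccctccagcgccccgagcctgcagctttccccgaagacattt
The GC box (GGGCGG, or CCGCCC on the other strand) occurred 5 times before the internal Cacna1d start, overlapping itself in the long capital run, and 0 times in the other 3 windows. It is in 32.7% of all 32851 RefSeq windows of this length. The cyclic AMP response element (TGACGTCA, in 1.55% of windows), the AP-1 site (TGANTCA, 6.75%) and the Egr site (GCGNGGGCG or CGCCCNCGC, 4.7%, which shares letters with the GC box when a G follows) were not found in these 4 windows. The windows also differed in base composition: the internal Cacna1d window was 86.4% G and C with 50 CpG dinucleotides, the upstream one 39.6% with 2, Cacna1e 52% with 6 and Cacna1i 62.4% with 16, against a median of 52.4% and 6 over all windows. Among the member windows not shown, Cacna1b held 3 GC boxes and 2 Egr sites, and the Cacna1c window at chr6:119108496-119108745 held 6 and 1. The other Cacna1c windows held 0 of either. A match of letters is a description and shows no binding.

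Exploration libraries were tested against home cage libraries of the same genotype label with limma on log2(FPKM + 1). A gene was called at a Benjamini-Hochberg adjusted p under 0.05 across all 11892 tested genes. All 8 alpha-1 genes had negative log2 changes under both labels, 3 of which turned positive in the KO-labelled libraries once length and GC trends were removed. In the WT-labelled libraries 3 of 8 fell, Cacna1d, Cacna1e and Cacna1h, where 4.29% of tested genes were called lower and 6.31% were called in either direction. In the KO-labelled libraries 6 of 8 fell, Cacna1b, Cacna1c, Cacna1d, Cacna1e, Cacna1g and Cacna1h, where 16.6% of tested genes were called lower and 28.6% in either direction. None rose. The median log2 change of the 8 was -0.35 in the WT-labelled and -0.71 in the KO-labelled libraries, against -0.02 and -0.04 over all tested genes. For 6 of the 8 (all but Cacna1a and Cacna1i) the 6 exploration libraries lay below all 4 home cage libraries, a separation in this direction seen in 10.4% of tested genes. Within 1 label or 1 environment the groups hold fewer libraries, so groups that do not overlap there carry little weight by themselves. Home cage values enter both this comparison and the genotype comparison in the home cage, so the 2 sets of results share libraries.

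**Figure D3:**
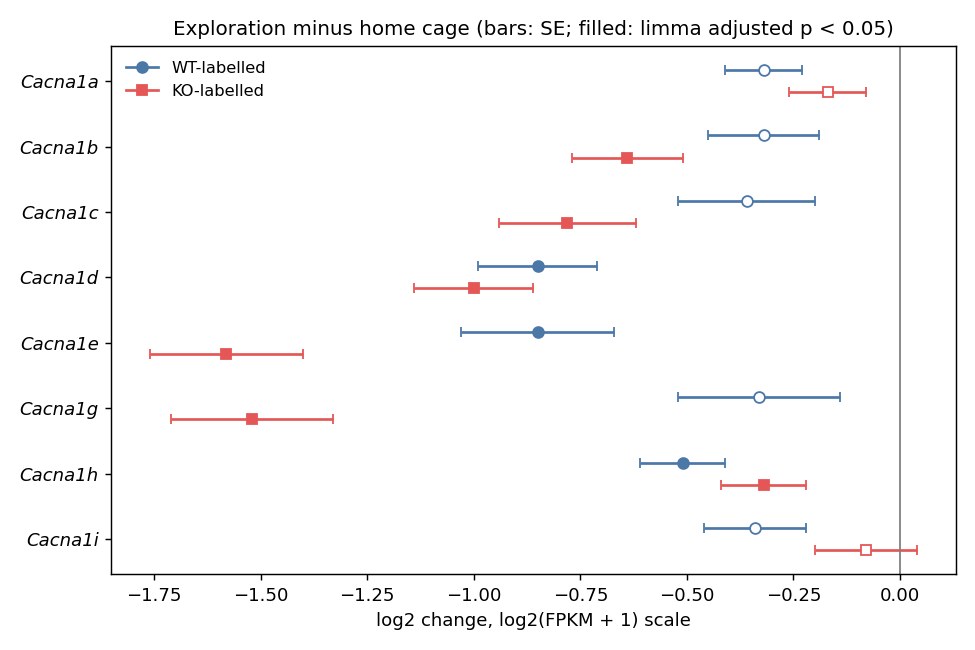
Log2 change of each alpha-1 gene from home cage to exploration on the log2(FPKM + 1) scale, in WT-labelled (blue circles) and KO-labelled libraries (red squares); bars are standard errors and filled symbols are genes with a limma adjusted p under 0.05. All 16 changes lie below 0, and Cacna1e and Cacna1g in the KO-labelled libraries lie farthest from it, at -1.58 and -1.52.

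Among the L-type genes, Cacna1d, whose channels open at more negative voltages than those of Cacna1c, was at 5.83 and 6.62 FPKM in the WT-labelled home cage libraries and at 3.27, 2.74 and 2.98 FPKM after exploration. Under the KO label it was at 4.8 and 6.54 FPKM in the home cage and at 2.75, 2.34 and 1.88 FPKM after exploration. Every exploration library was below every home cage library, and the mean fell by 51.9% in WT-labelled libraries (limma, change of -0.85 in log2, SE 0.14, adjusted p 0.00606) and by 59% in KO-labelled ones (limma, change of -1 in log2, SE 0.14, adjusted p 0.00163). Cacna1c, the main L-type pore of forebrain neurons and heart, was at 3.43 and 3.56 FPKM in the WT-labelled home cage libraries and at 2.68, 2.61 and 2.23 FPKM after exploration. Under the KO label it was at 3.03 and 5.33 FPKM in the home cage and at 1.98, 2.06 and 1.79 FPKM after exploration. The groups did not overlap under either label. The change passed in the KO-labelled libraries (limma, change of -0.78 in log2, SE 0.16, adjusted p 0.00602) but not in the WT-labelled ones (limma, change of -0.36 in log2, SE 0.16, adjusted p 0.212).

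Of the presynaptic and spine channels, Cacna1e (R-type) had the largest drop in FPKM. It was at 14.84 and 19.21 FPKM in the WT-labelled and 17.44 and 26.7 FPKM in the KO-labelled home cage libraries. After exploration it was at 9.96, 9.39 and 7.51 FPKM in the WT-labelled and 5.73, 7.93 and 6.16 FPKM in the KO-labelled libraries. The highest exploration value, 9.96 FPKM, was under the lowest home cage value, 14.84 FPKM. The mean fell by 47.4% under the WT label (limma, change of -0.85 in log2, SE 0.18, adjusted p 0.021) and by 70.1% under the KO label (limma, change of -1.58 in log2, SE 0.18, adjusted p 0.000898). Cacna1b, the N-type channel of nerve terminals, was at 10.87 and 11.04 FPKM in the WT-labelled home cage libraries and at 9.28, 8.31 and 8.11 FPKM after exploration. The KO-labelled libraries went from 9.61 and 13.37 FPKM to 6.36, 7.79 and 6.77 FPKM. The groups were apart under both labels, and the KO-labelled change passed (limma, change of -0.64 in log2, SE 0.13, adjusted p 0.0053) while the WT-labelled one did not (limma, change of -0.32 in log2, SE 0.13, adjusted p 0.156). Cacna1a, the P/Q-type channel that dominates fast release, was at 20.33 and 19.4 FPKM in the WT-labelled home cage libraries and at 15.17, 15.94 and 16.09 FPKM after exploration. The KO-labelled libraries were at 13.73 and 15.43 FPKM in the home cage and at 11.78, 13.65 and 12.98 FPKM after exploration. Its groups did not overlap within either label, but under the KO label only narrowly so (13.73 against 13.65 FPKM). Neither change passed (limma, changes of -0.32 with SE 0.09 and -0.17 with SE 0.09 in log2, adjusted p 0.0517 and 0.149).

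Of the T-type genes Cacna1h fell under both labels, Cacna1g under the KO label and Cacna1i under neither, and the differences between these genes were not tested. Cacna1g, the T-type channel of thalamic relay neurons, was at 6.41 and 7.72 FPKM in the WT-labelled home cage libraries and at 5.11, 5.84 and 5.25 FPKM after exploration, a log2 change of -0.33 that did not pass (SE 0.19, limma adjusted p 0.341). Under the KO label it was at 8.79 and 13.37 FPKM in the home cage and at 4.18, 3.28 and 2.22 FPKM after exploration. That mean fell by 70.9% (limma, change of -1.52 in log2, SE 0.19, adjusted p 0.00106), close to the fall of Cacna1e under the same label. Cacna1h, the T-type channel that is inhibited by zinc, was at 11.88 and 11.33 FPKM in the WT-labelled home cage libraries and at 8.03, 7.76 and 7.82 FPKM after exploration. Under the KO label it was at 8.97 and 11.01 FPKM in the home cage and at 7.06, 8.47 and 7.74 FPKM after exploration. It fell under both labels (limma, changes of -0.51 and -0.32 in log2, each with SE 0.1, adjusted p 0.0162 and 0.0359). Cacna1i, the slowest T-type channel, was at 10.36 and 9.6 FPKM in the WT-labelled home cage libraries and at 7.27, 8.51 and 7.24 FPKM after exploration. Its KO-labelled values overlapped, with 9.03 and 7.72 FPKM in the home cage and 6.77, 9.16 and 7.82 FPKM after exploration. Neither change passed (limma, changes of -0.34 with SE 0.12 and -0.08 with SE 0.12 in log2, adjusted p 0.123 and 0.663).

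Transcript length moved with these changes and stands beside them as a measurement. The members' transcripts were 7926 nt (Cacna1a) to 14921 nt (Cacna1e) long, longer than 94.7% to 99.7% of tested genes with a length. From home cage to exploration, the 3163 tested genes with transcripts shorter than 2000 nt had a median log2 change of 0.12 in the WT-labelled and 0.13 in the KO-labelled libraries. The 625 genes with transcripts of at least 7926 nt had medians of -0.23 and -0.3, and 15% and 45.9% of them were called lower. With length and GC trends removed from each library, an alternative chosen after seeing the data, Cacna1d, Cacna1e and Cacna1h were again called lower in the WT-labelled libraries, by log2 changes of -0.622, -0.514 and -0.311 (limma adjusted p 0.0226, 0.0467 and 0.0462). In the KO-labelled libraries 5 genes were still called lower, Cacna1b (-0.267), Cacna1c (-0.363), Cacna1d (-0.687), Cacna1e (-1.15) and Cacna1g (-1.13), with limma adjusted p of 0.0475, 0.0463, 0.00486, 0.000901 and 0.00333. There Cacna1h changed sign and was not called (0.0711, limma adjusted p 0.532), and Cacna1i was called higher (0.356, limma adjusted p 0.0471). Cacna1a also changed sign there without being called (0.203, limma adjusted p 0.0553). Of all 11781 tested genes with a length, 535 were called under this setting in the WT-labelled response, 39.6% of them higher. In the KO-labelled response 2851 were called, 55.9% of them higher.

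**Figure D4:**
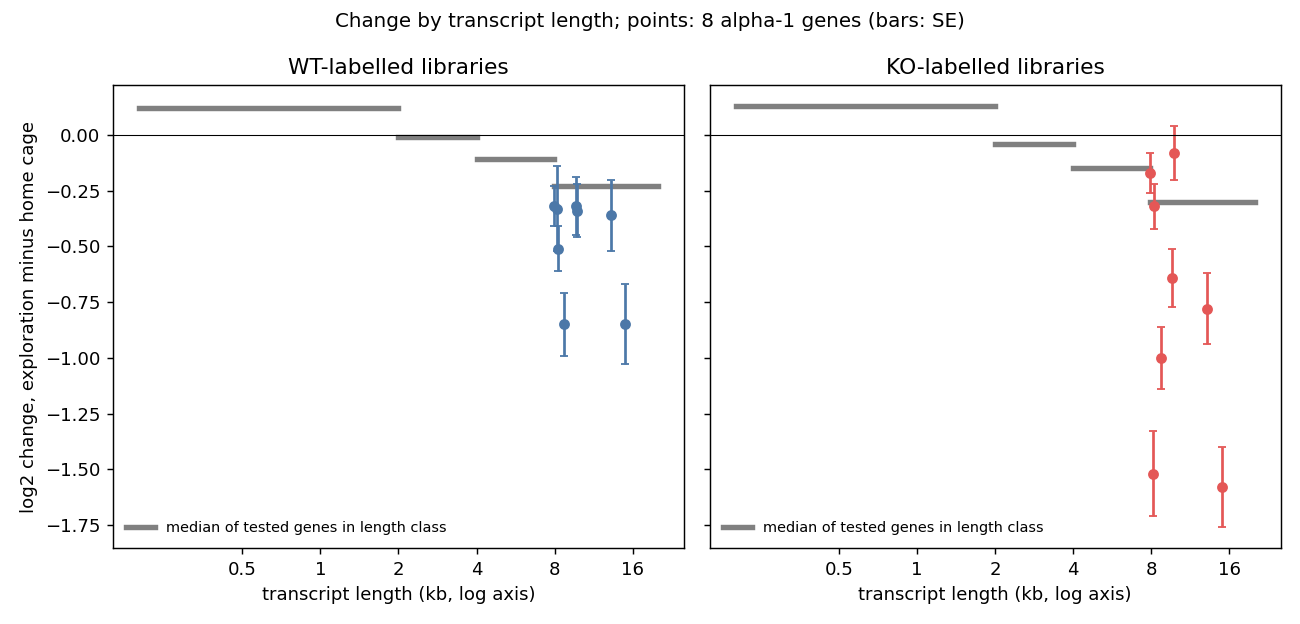
Log2 change from home cage to exploration against transcript length (log axis, kb) in WT-labelled and KO-labelled libraries. Grey lines are medians of all tested genes in 4 length classes, drawn to the edges of the class or of the plot, and points are the 8 alpha-1 genes with standard errors. The grey medians step down from 0.12 and 0.13 to -0.23 and -0.3, and Cacna1d, Cacna1e and, under the KO label, Cacna1g lie far below the line of their class.

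Markers of other cells and subfields moved between the environments too. In the KO-labelled libraries 3 of 5 CA1 pyramidal markers fell and 1 rose (limma), and their sum went from between 857 and 914.9 FPKM to between 743.1 and 800.7 FPKM. Of 8 CA2 and CA3 markers 5 were tested, of which 3 rose and 1 fell, and their sum went from 115.9 to 119.3 FPKM up to 178.6 to 284.5 FPKM, with Iyd listed at 0 in both KO-labelled home cage libraries. Also higher after exploration under the KO label was the 1 tested dentate marker (Lct, list sums 1.74 to 6.35 FPKM, then 11.3 to 23.2 FPKM). Of 6 interneuron markers 1 rose (Pvalb, list sums 182 to 188.8 FPKM, then 207.8 to 254.4 FPKM). Of 2 tested thalamic markers 1 rose (Plekhg1, list sums 3.45 to 5.45 FPKM, then 5.86 to 8.64 FPKM). Of 2 tested choroid plexus markers 1 rose (Kl, list sums 9.34 to 14.1 FPKM, then 10.5 to 16.5 FPKM). In the WT-labelled libraries 0 of 5 CA1 markers were called by limma (0 lower, 0 higher), and the sums overlapped at 800.6 to 849.9 FPKM and 783.1 to 855.9 FPKM. There 3 of 5 oligodendrocyte markers rose (list sums 126.8 to 151.5 FPKM, then 182 to 345.1 FPKM). So did 3 of 5 microglial markers (list sums 24.5 to 25.2 FPKM, then 31.8 to 38.2 FPKM). Of 5 astrocyte markers 2 rose (list sums 58 to 64 FPKM, then 69.1 to 88.9 FPKM). Of 6 interneuron markers 1 rose (Sst, list sums 172.6 to 175.9 FPKM, then 241.7 to 287.4 FPKM). Over all tested genes, 28.6% were called in the KO-labelled response and 6.31% in the WT-labelled one, and the marker lists are short. The part of the markers in the changes of the alpha-1 genes was not tested.

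Some calls changed when 1 library was left out. Without WT-labelled home cage library 2, 0 of the 8 genes were called in the WT-labelled response, and without WT-labelled exploration library 2 only Cacna1d was. Over the 10 such fits the WT-labelled log2 change ran from -0.933 to -0.775 for Cacna1d, from -1.03 to -0.679 for Cacna1e and from -0.538 to -0.475 for Cacna1h, while the number of all tested genes called ran from 84 to 1004. Without KO-labelled home cage library 2, which had the highest Cacna1b, Cacna1c, Cacna1e and Cacna1g values of all libraries, 3 genes were called in the KO-labelled response, Cacna1d, Cacna1e and Cacna1g. Those 3 were called in the KO-labelled libraries in all 10 fits that left out 1 library. With no filter on low values Cacna1e in the WT-labelled and Cacna1h in the KO-labelled response missed the threshold (limma adjusted p 0.0599 and 0.0567). When only the WT-labelled groups were fitted, 6 of the 8 genes fell (Cacna1a, Cacna1b, Cacna1d, Cacna1e, Cacna1h and Cacna1i). In that fit 1690 of all 11892 tested genes were called, against 750 with all groups fitted. With only the KO-labelled groups fitted 5 of the 8 fell, as Cacna1h missed the threshold (limma adjusted p 0.116). In that fit 1705 of all tested genes were called, against 3400 with all groups fitted. The KO-labelled call of Cacna1h held in 5 of the 10 fits that left out 1 library. In the WT-labelled response the call held in 9 of these fits for Cacna1d, 7 for Cacna1e and 6 for Cacna1h.

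Whether the labels differed in the response to exploration was tested as an interaction. By limma 0 of the 8 genes passed, with 2 at an unadjusted p under 0.05, where 0.875% of tested genes were called. Cacna1g came nearest, with a fall larger by 1.19 on the log2 scale in the KO-labelled libraries (95% interval -1.79 to -0.58, limma adjusted p 0.0639). Cacna1e had a difference of -0.73 (interval -1.3 to -0.16, limma adjusted p 0.187). For the other 6 genes the differences ran from -0.42 (Cacna1c, interval -0.92 to 0.08) to 0.27 (Cacna1i, interval -0.11 to 0.65). Cacna1g passed without KO-labelled home cage library 1 (log2 difference -1.46) and without KO-labelled exploration library 1, and Cacna1c passed without KO-labelled home cage library 1 (-0.745). The larger number of genes called in the KO-labelled than in the WT-labelled response is therefore not shown to be a difference between the labels.

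Between the genotype labels within an environment, Cacna1a was the 1 alpha-1 gene that passed. In the home cage the WT-labelled libraries had 20.33 and 19.4 FPKM and the KO-labelled ones 13.73 and 15.43 FPKM, so that the groups did not overlap. The KO-labelled mean was lower by 26.6% (limma, change of -0.42 in log2, SE 0.1, adjusted p 0.0358), in a comparison where 3.57% of tested genes were called and 1.45% were called lower. After exploration the KO-labelled libraries (11.78, 13.65 and 12.98 FPKM) again all lay below the WT-labelled ones (15.17, 15.94 and 16.09 FPKM), but the change did not pass (limma, change of -0.28 in log2, SE 0.08, adjusted p 0.117). Averaged over both environments Cacna1a passed once more (limma, change of -0.35 in log2, SE 0.06, adjusted p 0.0207), where 2.13% of tested genes were called and 1.35% were called lower, and 0 of the other 7 genes did by limma, with 0 of them at an unadjusted p under 0.05. The home cage call was lost in 8 of the 10 fits that left out 1 library (log2 change -0.502 to -0.344), with no filter, and when only the home cage groups were fitted. The averaged call was lost in 4 of the 10 (-0.391 to -0.312). Markers differed between the same home cage groups. In the KO-labelled libraries 2 of 5 astrocyte markers were higher (list sums of 90.4 to 116.5 FPKM against 58 to 64 FPKM). So was 1 of 5 microglial markers (list sums of 32.2 to 36.5 FPKM against 24.5 to 25.2 FPKM). Of the 5 CA1 markers 1 was higher (Mpped1) and 1 lower (Wfs1). Lower there was also the 1 tested dentate marker (list sums 1.74 to 6.35 FPKM against 15.8 to 20.1 FPKM). So were 1 of 2 tested thalamic markers (list sums 3.45 to 5.45 FPKM against 11.3 to 13.7 FPKM) and 1 of 2 tested choroid plexus markers (list sums 9.34 to 14.1 FPKM against 17.6 to 234.2 FPKM). Their part in the Cacna1a difference was not tested.

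None of the other 7 genes passed between the genotype labels in either environment by limma. In the home cage Cacna1g was at 8.79 and 13.37 FPKM in the KO-labelled and 6.41 and 7.72 FPKM in the WT-labelled libraries (limma, change of 0.56 in log2, SE 0.21, adjusted p 0.184). After exploration it was the other way around, with 4.18, 3.28 and 2.22 FPKM against 5.11, 5.84 and 5.25 FPKM (limma, change of -0.62 in log2, SE 0.17, adjusted p 0.117). Neither passed. The groups did not overlap in either environment, which with 2 or 3 libraries per group carries little weight by itself. After exploration 7 of the 8 genes had negative log2 changes with a median of -0.27, against -0.01 over all tested genes, of which 53.5% were negative. By limma 0 of the 8 passed there, with 4 at an unadjusted p under 0.05 (Cacna1a, Cacna1b, Cacna1e and Cacna1g), and 0.597% of tested genes were called. Genes with transcripts of at least 7926 nt had a median of -0.07 in that comparison, and 66.7% of them were negative. In the home cage the 8 genes had a median of -0.04 and 4 of 8 were negative.

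**Figure D5:**
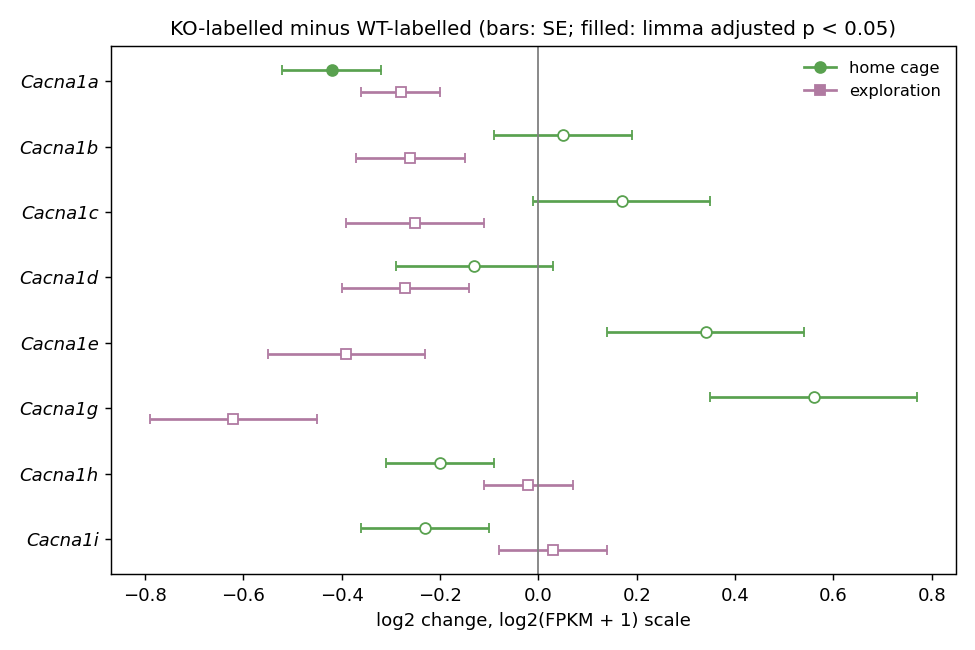
Log2 difference of KO-labelled from WT-labelled libraries for each alpha-1 gene, on the log2(FPKM + 1) scale, in the home cage (green circles) and after exploration (purple squares); bars are standard errors and the filled symbol has a limma adjusted p under 0.05. Cacna1a lies below 0 in both environments (-0.42 and -0.28), whereas Cacna1g lies at 0.56 in the home cage and -0.62 after exploration.

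Of the 10 auxiliary subunit genes listed (Cacna2d1 to Cacna2d4, Cacnb1 to Cacnb4, Cacng1 and Cacng6), 8 were tested. The counts of this list and those below stand beside shares over all tested genes. These were 28.6% called in the KO-labelled response, 6.31% in the WT-labelled one and 3.57% between the labels in the home cage. In the WT-labelled response 0 of 8 were called by limma, with 0 at an unadjusted p under 0.05. In the KO-labelled response 3 of 8 fell, Cacnb3, Cacnb2 and Cacna2d2, and 0 rose. Cacnb3, a beta subunit that brings high-voltage-activated channels to the membrane, was at 116 and 115.3 FPKM in the KO-labelled home cage libraries and at 88.99, 88.38 and 85.66 FPKM after exploration (limma, change of -0.4 in log2, SE 0.09, adjusted p 0.00741). In the WT-labelled libraries it was at 77.2 and 87.05 FPKM in the home cage and at 90.44, 97.11 and 80.67 FPKM after exploration, so that these groups overlapped. In the home cage it was higher in the KO-labelled than in the WT-labelled libraries (limma, change of 0.49 in log2, SE 0.09, adjusted p 0.0221), the opposite direction to Cacna1a. This Cacnb3 call was lost without the filter on low values (limma adjusted p 0.0565) and in 2 of 10 fits that left out 1 library. Cacnb2, another beta subunit, was at 30.88 and 35.66 FPKM in the KO-labelled home cage libraries and at 26.13, 26.53 and 27.28 FPKM after exploration (limma, change of -0.31 in log2, SE 0.08, adjusted p 0.0184), which was lost when only the KO-labelled groups were fitted (limma adjusted p 0.0694). As a list the 8 had a median log2 change of -0.05 in the WT-labelled and -0.17 in the KO-labelled response, nearer to all tested genes than the alpha-1 genes were. The lists were not matched for transcript length, and all tested genes of at least 7926 nt had medians of -0.23 and -0.3. The part of length in this contrast was not tested.

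The gamma subunits that act as AMPA receptor auxiliary proteins (6 listed, 6 tested) had 0 calls in the WT-labelled response by limma, with 0 at an unadjusted p under 0.05. In the KO-labelled response Cacng5 rose, from 0.83 and 0.65 FPKM to 2.35, 2.75 and 5.8 FPKM (limma, change of 1.34 in log2, SE 0.4, adjusted p 0.0272; 0.0719 without the filter on low values), and Cacng7 fell, from 45.12 and 47.44 FPKM to 34.84, 39.69 and 38.32 FPKM (limma, change of -0.29 in log2, SE 0.09, adjusted p 0.0313), which was lost with length and GC trends removed (-0.215, limma adjusted p 0.0915), with size factors (0.0549) and with only the KO-labelled groups fitted (0.0735). Leaving out 1 library lost the Cacng5 call in 3 of 10 fits and the Cacng7 call in 3 of 10. In the WT-labelled home cage libraries Cacng5 was at 5.99 and 1.21 FPKM, on either side of its WT-labelled exploration values of 2.88, 2.14 and 3.01 FPKM.

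Of 14 channel regulators and presynaptic tethers 10 were tested, and 1 fell in the WT-labelled response, while 3 rose and 4 fell in the KO-labelled one. Unc79, a component of the sodium leak channel complex, fell under both labels: it was at 8.73 and 9.06 FPKM and then at 5.28, 5.82 and 5.16 FPKM in the WT-labelled libraries (limma, change of -0.63 in log2, SE 0.13, adjusted p 0.0154). Under the KO label it was at 6.44 and 8.44 FPKM and then at 4.53, 5.49 and 4.22 FPKM (limma, change of -0.55 in log2, SE 0.13, adjusted p 0.00919), a call that was lost with length and GC trends removed (-0.22, limma adjusted p 0.0976). Leaving out 1 library lost the WT-labelled Unc79 call in 4 of 10 fits and the KO-labelled one in 1 of 10. Rem2, a small GTPase of the family that inhibits voltage-gated calcium channels, moved against the alpha-1 genes in the KO-labelled libraries. It was at 13.07 and 9.23 FPKM in the home cage and at 19.89, 21.56 and 27.58 FPKM after exploration (limma, change of 0.99 in log2, SE 0.15, adjusted p 0.00199). In the WT-labelled libraries it was at 20.11 and 18.38 FPKM and then at 17.93, 16.66 and 19.93 FPKM, which overlap. Rem2 was lower in the KO-labelled home cage libraries (limma, change of -0.75 in log2, SE 0.17, adjusted p 0.0334), and so was Rimbp2, which tethers presynaptic calcium channels at the active zone, at 12.91 and 12.86 FPKM against 23.69 and 22.24 FPKM (limma, change of -0.79 in log2, SE 0.14, adjusted p 0.0186). Without the filter on low values both home cage calls were lost (limma adjusted p 0.0862 for Rem2 and 0.0565 for Rimbp2), and leaving out 1 library lost them in 5 and 2 of 10 fits. Averaged over environments Rimbp2 was called lower as well (limma, change of -0.42 in log2, SE 0.09, adjusted p 0.0403). That averaged call was lost without the filter on low values (limma adjusted p 0.0882) and in 7 of 10 fits that left out 1 library. After exploration alone Rimbp2 overlapped between the labels, at 14.17, 20.69 and 16.58 FPKM in the KO-labelled and 16.76, 17.14 and 19.21 FPKM in the WT-labelled libraries.

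Of 13 genes of calcium release from and entry into stores 9 were tested. In the WT-labelled response 1 fell, and in the KO-labelled response 1 rose and 2 fell. Ryr3, a ryanodine receptor that releases stored calcium, went from 7.83 and 8.42 FPKM to 3.36, 3.54 and 3.15 FPKM in the WT-labelled libraries (limma, change of -1.07 in log2, SE 0.2, adjusted p 0.0117). That WT-labelled call was lost in 2 of 10 fits that left out 1 library. Ryr3 also fell under the KO label, from 4.25 and 5.91 FPKM to 2.69, 3.15 and 1.37 FPKM (limma, change of -0.86 in log2, SE 0.2, adjusted p 0.01). Itpr1, the main neuronal inositol trisphosphate receptor, fell in the KO-labelled libraries from 49.78 and 67.55 FPKM to 34.8, 42.2 and 34.62 FPKM (limma, change of -0.63 in log2, SE 0.13, adjusted p 0.00526). Orai2, a store-operated calcium channel, rose there from 32.02 and 24.37 FPKM to 53.13, 70.14 and 71.38 FPKM (limma, change of 1.17 in log2, SE 0.14, adjusted p 0.000898). In the home cage it was lower in the KO-labelled libraries than in the WT-labelled ones, at 47.73 and 40.03 FPKM (limma, change of -0.63 in log2, SE 0.15, adjusted p 0.0453). That Orai2 call was lost without the filter on low values (limma adjusted p 0.107), with size factors (0.0625), with only the home cage groups fitted (0.0511) and in 7 of 10 fits that left out 1 library. Over all 33 tested genes of these 4 lists, 5 rose and 10 fell in the KO-labelled response, where 28.6% of all tested genes were called. In the WT-labelled response 0 rose and 2 fell, where 6.31% of all tested genes were called. The medians of the 33 were -0.03 and -0.08.

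Across the 10 libraries, which share the 2 environments, most alpha-1 genes varied together. Cacna1b, Cacna1c, Cacna1d and Cacna1e correlated with each other at a Pearson r of 0.91 to 0.97 on log2(FPKM + 1), and Cacna1g with each of these at 0.87 to 0.92. Cacna1h correlated with the same 4 genes at 0.82 to 0.89 and with Cacna1g at 0.65. Cacna1i correlated with the other 7 at 0.21 to 0.7 and Cacna1a at 0.45 to 0.77. Among 8236 tested genes with a mean of at least 5 FPKM, the patterns most like each member's were those of Huwe1 (r 0.99) and Vps13d (0.988) for Cacna1b, Plekha6 (0.986) and E430025E21Rik (0.98) for Cacna1c, and Nktr (0.983) and Fam193b (0.982) for Cacna1d. They included Zdhhc23 (0.986) for Cacna1e and Car12 (0.99) for Cacna1g, and were Ralgapb (0.98) and Atp8a1 (0.977) for Cacna1h. The closest were less close for Cacna1a, with Nipal3 (0.965) and Slc39a13 (0.957), and for Cacna1i, with Zmat3 (0.928) and Dedd (0.914). These are descriptions over libraries that differ in environment and table block.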

How the data were processed

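Bulk RNA from laser-dissected CA1 was read from both fragment ends on a BGISEQ sequencer, per the labels' protocols. The values are FPKM per gene as the authors deposited them. The submitters' processing notes name HISAT, StringTie, GATK, Bowtie2 and RSEM, with no role or order, and the builds GRCm38 and mm10; filters and the use of strand are not given in the sources used here, so genes with antisense or overlapping partners are uncertain. The exploration block held 19156 genes and the home cage block 18257, joined on gene ID to 17986. Groups came from the genotype and source labels, and replicate numbers only name libraries. The design counts 1 animal per library.

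Each gene was fitted with limma (version 3.58.1, R 4.3.3) on log2(FPKM + 1), with a variance trend and 1 mean per group over 10 libraries (6 residual and 5.71 prior degrees of freedom), for genes that reached 1 FPKM in 2 or more libraries. The pseudocount of 1 understates changes of low genes. Benjamini-Hochberg values run over 11892 genes. The script was tested on simulated data. FPKM are not counts, so no count test was run. Depth came from the spacing of values from 0.08 to 0.6 FPKM on genes with 1 RefSeq transcript, less an offset of 100 nt. Transcript lengths (98.5% of genes) were from GENCODE M21, promoter windows from RefSeq on GRCm38.p6. Alternatives were a pseudocount of 0.1, no filter, size factors, only the groups compared, each library left out and, added after seeing the data, length and GC trends removed (splines, 5 degrees of freedom each). Named were the 8 members, Neil3, per comparison the 2 called genes of each other list with the smallest p, and the 2 genes most correlated with each member; Cacna2d2, Ryr3 in the KO-labelled response and single markers were named after their values were seen. Some genes of these lists and correlations are not reported here, and the CA1 marker sums leave out 1 listed gene. The members and lists were chosen with earlier results of these data known.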

Additional observations from a re-analysis of the deposited data

Results flagged for a closer look

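The response to exploration differed between the genotype labels for 2 of the 33 tested genes of the other calcium lists (limma interaction). Over all tested genes 0.875% were called. Rem2, the inhibitory small GTPase, had a log2 difference in response of 1.07 (limma adjusted p 0.0496), and Orai2, the store-operated channel, one of 1.08 (limma adjusted p 0.0496). Both were lower in the KO-labelled home cage libraries and rose after exploration under that label. Neither was called without the filter on low values (limma adjusted p 0.123 for each) or with a pseudocount of 0.1 (0.0591 for each), Rem2 was not called with size factors either (0.0513), and leaving out 1 library lost the call in 8 of 10 fits for Rem2 and in 7 of 10 for Orai2.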

How the results depend on the processing

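No paired analysis was possible because the labels give no replicate numbers that the groups share. A different setting moved these counts, and the cause was not tested. With no filter on low values the genes called were 47 for the genotype label in the home cage, 16 after exploration, 54 averaged over environments and 0 for the difference in response, which was also 0 with a pseudocount of 0.1; alpha-1 genes called in the home cage were 0. With only the groups compared, fewer libraries set the spread: the genes called were 36 for the genotype label after exploration, 1690 in the WT-labelled and 1705 in the KO-labelled response, and alpha-1 genes called were 0 in the home cage and 6 in the WT-labelled response. Removing length and GC trends, chosen after seeing the data, gave 553 genes averaged over environments. It reversed the log2 change of Cacna1h between labels after exploration (0.149), of Cacna1c, Cacna1e and Cacna1g averaged over environments (0.024, 0.043 and 0.0352), and of Cacna1a, Cacna1h and Cacna1i in the KO-labelled response (0.203, 0.0711 and 0.356). The share of calls that were higher in the KO-labelled response was 42% as reported, 50.4% with size factors and 55.9% with trends removed, and averaged over environments it was 36.4%, 43.8% and 56.2%.

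Leaving out each library in turn, which leaves a home cage group with 1 library assumed to vary like the others, alpha-1 genes called ranged from 0 to 1 in the home cage, 0 to 0 after exploration, 0 to 1 averaged, 0 to 4 in the WT-labelled response, 3 to 6 in the KO-labelled response and 0 to 2 for the difference. All genes called ranged, in that order, from 13 to 588, 17 to 104, 28 to 319, 84 to 1004, 505 to 3568 and 0 to 436. Log2 changes that changed sign in some of these fits ranged in the home cage from -0.172 to 0.265 for Cacna1b, -0.157 to 0.494 for Cacna1c and -0.315 to 0.0637 for Cacna1d. After exploration they ranged from -0.0796 to 0.0367 for Cacna1h and -0.064 to 0.129 for Cacna1i. Averaged, they ranged from -0.218 to 0.000322 for Cacna1b, -0.204 to 0.121 for Cacna1c, -0.173 to 0.12 for Cacna1e and -0.17 to 0.107 for Cacna1g. They ranged from -0.178 to 0.0235 for Cacna1i in the KO-labelled response and from -0.336 to 0.0424 for Cacna1d in the difference. FPKM keep no exact counts, so counting error was not modelled.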
